A study of Mus musculus with 12 samples.

Results

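GABA-A receptors are the chloride channels through which the transmitter GABA inhibits neurons, and 7 of their subunit genes are described here across all 12 libraries of a study of cultured mouse neurons. The members were chosen by name, as the genes Gabra2, Gabra3, Gabra4, Gabra5, Gabrb1, Gabrb2 and Gabrg1, and all 7 were found in both deposited expression tables, out of 18607 genes listed in either table. In each table a gene was tested where its 6 libraries averaged 1 FPKM or more. All 7 members met this in both tables and were tested in both comparisons.

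The cells were primary neurons of C57BL/6 mice, collected on day 10 of each treatment. In the first model, 3 libraries over-expressing H-Ras(G12V), a mutant of the signalling protein H-Ras that stays switched on, were set against 3 control libraries given mCherry, a fluorescent protein, whose genotype is labelled WT. The design text says that an adeno-associated virus carried H-Ras, and names neither its promoter nor the cells it enters. In the second model, 3 libraries titled etoposide, a topoisomerase II poison that breaks DNA, were set against 3 libraries titled DMSO, its solvent, all 6 labelled WT. The study uses these as oncogene-induced and stress-induced models of an ageing neuron and asks which pathways they share. For all 6 etoposide and DMSO libraries the treatment tag names the opposite group to the title. Groups follow the titles, which the table's column names match, so every direction below holds for the libraries titled etoposide. Nothing in the labels says whether the 3 libraries of a group are separate cultures or animals. The p-values therefore reflect library-to-library spread alone, which could be technical.

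A GABA-A receptor is a ring of subunits around a chloride pore, most often built from alpha, beta and gamma subunits. GABA binds between a beta and an alpha subunit, and the benzodiazepine site lies between an alpha and a gamma subunit. The alpha subunit sets much of where the receptor sits and how it responds. Receptors with alpha5, the Gabra5 product, are abundant in hippocampus and often lie outside synapses, where they carry tonic inhibition. Receptors with alpha2 (Gabra2) are enriched at inhibitory synapses on the axon initial segment, alpha3 (Gabra3) is prominent in the immature cortex, and alpha4 (Gabra4) joins extrasynaptic receptors in thalamus and dentate gyrus. Gabrb1 and Gabrb2 encode beta1 and beta2. Gabrg1 encodes gamma1, a less common gamma subunit that is found in some forebrain regions and in glia.

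All subunits of this receptor family share a short loop closed by a bond between a pair of cysteines, after which the family of Cys-loop receptors is named. The coding stretch of that loop is shown for the 7 members because all of them hold it and it shows which of them are most alike. Each is the coding strand of GENCODE release M21, 45 bases long, and the capitals mark the codons of the 2 cysteines.
Gabra2: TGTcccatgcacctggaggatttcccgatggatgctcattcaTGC
Gabra3: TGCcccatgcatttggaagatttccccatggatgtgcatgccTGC
Gabra4: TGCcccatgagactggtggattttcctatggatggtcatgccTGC
Gabra5: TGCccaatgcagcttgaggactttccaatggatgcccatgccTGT
Gabrb1: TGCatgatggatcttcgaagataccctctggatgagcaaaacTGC
Gabrb2: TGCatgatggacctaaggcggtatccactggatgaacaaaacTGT
Gabrg1: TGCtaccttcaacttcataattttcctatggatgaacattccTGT
The 4 alpha genes were 75.6% to 80.0% identical to one another over these 45 bases, and Gabrb1 and Gabrb2 were 77.8% identical. Gabrg1 was 64.4% to 68.9% identical to the alpha genes, and 57.8% and 55.6% identical to Gabrb1 and Gabrb2. The alpha genes were 48.9% to 60% identical to the beta genes.

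The members also share genome neighbourhoods. In the RefSeq annotation of GRCm38.p6, Gabrg1 and Gabra2 are next to each other on the minus strand of chromosome 5, and Gabra4 (minus strand) and Gabrb1 (plus strand) overlap at their 5′ ends on the same chromosome. Gabra5 on chromosome 7 overlaps a neighbouring subunit gene, Gabrb2 lies on chromosome 11 and Gabra3 on chromosome X. No label or header says whether the authors' counting used strand, so reads from overlapping genes cannot be assigned with certainty. The starts of the adjacent genes Gabrg1 and Gabra2 are shown because these neighbours moved in opposite directions under H-Ras(G12V), as described below. Each window runs from 250 bases before to 50 bases after the RefSeq start of the gene, written along the gene's own strand. Capitals mark the GC box GGGCGG on either strand.
Gabrg1, chr5:70842568-70842867, GRCm38.p6, minus strand: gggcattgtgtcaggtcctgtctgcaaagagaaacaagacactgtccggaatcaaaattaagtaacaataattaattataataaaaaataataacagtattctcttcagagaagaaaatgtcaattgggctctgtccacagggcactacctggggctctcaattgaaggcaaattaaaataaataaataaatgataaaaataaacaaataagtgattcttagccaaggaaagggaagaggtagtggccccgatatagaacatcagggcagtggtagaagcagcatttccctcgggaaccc
Gabra2, chr5:71095800-71096099, GRCm38.p6, minus strand: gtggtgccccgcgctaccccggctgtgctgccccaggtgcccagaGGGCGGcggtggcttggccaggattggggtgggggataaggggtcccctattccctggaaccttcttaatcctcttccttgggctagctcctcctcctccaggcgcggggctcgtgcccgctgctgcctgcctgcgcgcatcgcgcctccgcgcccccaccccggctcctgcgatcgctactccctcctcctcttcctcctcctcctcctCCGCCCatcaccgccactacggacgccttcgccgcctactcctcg
The Gabrg1 window held 38.3% G and C bases, a lower content than in all but 7.4% of the 32851 mouse windows of this length, and no GC box. The Gabra2 window held 70.0%, above 90.4% of windows, and 2 GC boxes, which 35.7% of all windows hold at least once. The 7 members have 11 such windows in RefSeq. None of the 11 holds the letters of an AP-1 site (TGANTCA, both strands, in 7.8% of all windows) or of a cAMP response element (TGACGTCA, in 1.8%). No stretch can match both patterns from the same base, and the letters describe these windows only.

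Gabra5 was the member with the highest level in every group. FPKM is corrected for transcript length, so levels of different genes can be set side by side. Gabra5 averaged 35.4 ± 3.9 FPKM in H-Ras(G12V), 110.1 ± 12.2 in mCherry, 60.4 ± 43.5 in etoposide and 106 ± 19.8 in DMSO libraries (SD, n = 3 each). Gabra4 was second by group mean in all 4 groups, at 13.97 ± 1.88 FPKM in H-Ras(G12V), 25.3 ± 8.55 in mCherry, 14.6 ± 10.9 in etoposide and 18.7 ± 7.0 in DMSO libraries. The ranges of Gabra5 and Gabra4 did not overlap in H-Ras(G12V), mCherry or DMSO libraries, and overlapped across the etoposide libraries, although Gabra5 was above Gabra4 within each of them. The members from second to sixth place overlapped their neighbours in the order in all 4 groups, except that the member in sixth place lay wholly above Gabrg1 in mCherry and DMSO libraries. Gabrg1 was last in mCherry, etoposide and DMSO libraries and sixth in H-Ras(G12V) libraries, where Gabra3 was last.

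**Figure D1:**
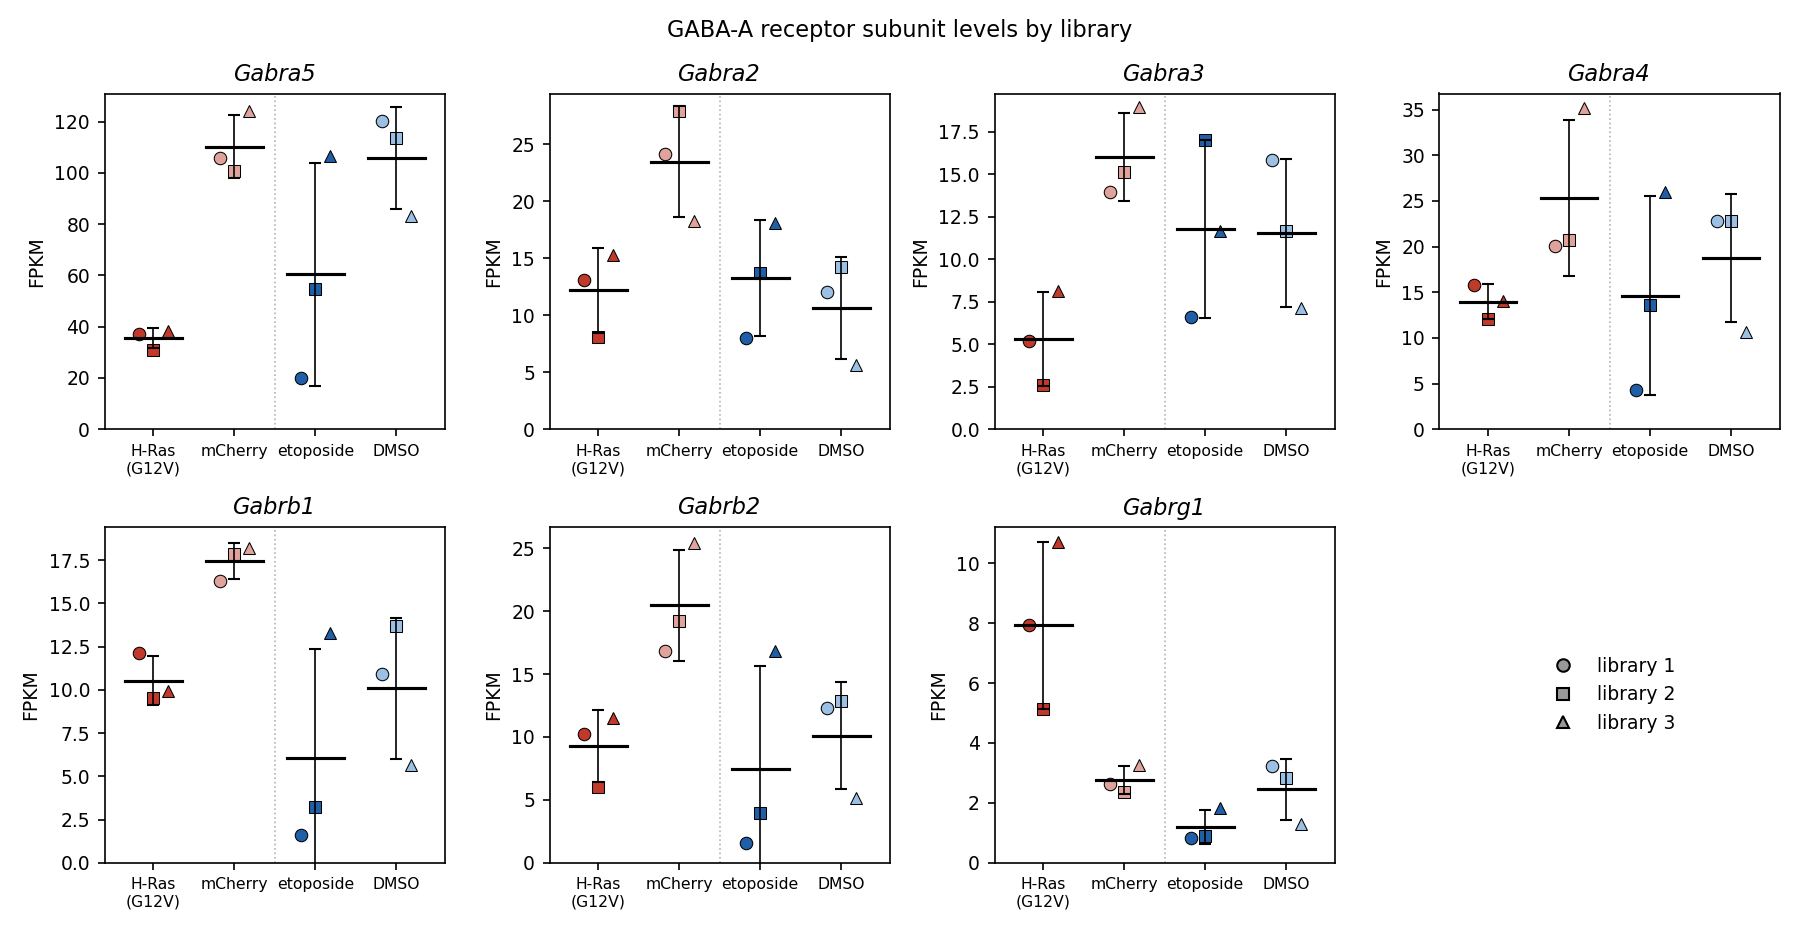
FPKM of the 7 GABA-A receptor subunit genes in each of the 12 libraries, 1 panel per gene with its own linear axis from 0; points are libraries, labelled by number, and bars are group means with SD (n = 3 each), cut at 0 where the SD exceeds the mean. Gabra5 lies between 31 and 38.27 FPKM in H-Ras(G12V) and between 100.65 and 123.94 in mCherry libraries, Gabrg1 is the member that is higher in H-Ras(G12V), and etoposide library 3 is above etoposide libraries 1 and 2 for 6 of the 7 genes.

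Some libraries stood apart from their group. Across genes, mCherry libraries 1 and 2 had a rank correlation of 0.997 with each other, and mCherry library 3 had 0.929 and 0.925 with them. With H-Ras(G12V) libraries 1, 2 and 3, mCherry library 3 had 0.940, 0.928 and 0.936. These were above the values of mCherry libraries 1 and 2 with them, which were 0.904 to 0.920. The rank correlation of etoposide library 3 was 0.811 with etoposide library 1, 0.881 with etoposide library 2, and 0.977, 0.979 and 0.931 with DMSO libraries 1, 2 and 3. Mouse Hras averaged 41.2 ± 9.39 FPKM in H-Ras(G12V) and 44.4 ± 1.49 in mCherry libraries (n = 3 each); the labels do not give the species of the transgene, so this gene is no check of the labels. All 16 neuron markers passed the filter in both tables. Markers of other cells were present too: the summed astrocyte list was 2963 to 4049 FPKM in H-Ras(G12V) against 1391 to 3634 in mCherry libraries, and 674 to 1060 in etoposide against 1322 to 2145 in DMSO libraries.

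With H-Ras(G12V), Gabra5, Gabra3, Gabrb2, Gabra2 and Gabrb1 fell and Gabrg1 rose. Of the 7 members, 5 were lower and 1 higher at a Benjamini-Hochberg adjusted limma p under 0.05, while across all 12724 genes tested 17.0% were called, 10.3% higher and 6.67% lower. Higher calls were thus 60.7% of all calls, a share that was 39.1% after scaling to a common FPKM sum and 50.6% after median-of-ratios scaling. The median log2 fold change over the 7 members was -0.91, and over all genes tested it was 0.05, or -0.07 after scaling to a common FPKM sum. Values of the 2 groups did not overlap for any of the 7 members, 6 being lower and 1 higher; this held for 40.3% of all genes tested, 23.7% higher and 16.6% lower. The summed FPKM of the 7 members was 101.4, 74.4 and 107.9 in H-Ras(G12V) libraries 1, 2 and 3, against 199.6, 203.8 and 243.2 in mCherry libraries 1, 2 and 3.

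Gabra5 was at 37.07, 31 and 38.27 FPKM in H-Ras(G12V) libraries 1, 2 and 3, against 105.75, 100.65 and 123.94 FPKM in mCherry libraries 1, 2 and 3. Every H-Ras(G12V) library lay far below every mCherry library, and the ratio of the means was 0.322. The log2 fold change was -1.61 (SE 0.14, adjusted p = 0.00196, limma). Leaving out any 1 of the 6 libraries left Gabra5 called. It was also called with mCherry libraries 1 and 2 averaged into 1 sample, a setting in which no other member was.

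Gabra3 was at 5.19, 2.58 and 8.14 FPKM in H-Ras(G12V) libraries, against 13.96, 15.13 and 18.92 FPKM in mCherry libraries. The H-Ras(G12V) libraries were all lower and differed among themselves, with library 2 the lowest. The log2 fold change was -1.52 (SE 0.33, adjusted p = 0.0244). Gabra2 was at 13.1, 8.1 and 15.31 FPKM in H-Ras(G12V) libraries, against 24.13, 27.93 and 18.28 FPKM in mCherry libraries. Library 3 of each group came closest to the other group, and the groups did not overlap. Its log2 fold change was -0.91 (SE 0.25, adjusted p = 0.0489), close to the threshold, and 11 of 15 alternative settings raised its adjusted p to 0.05 or above.

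Gabra4 did not pass. It was at 15.79, 12.04 and 14.09 FPKM in H-Ras(G12V) libraries, against 20.03, 20.72 and 35.18 FPKM in mCherry libraries. The groups did not overlap, and mCherry library 3 was well above the other mCherry libraries. The log2 fold change was -0.77 (SE 0.23, adjusted p = 0.0601). Without mCherry library 3 Gabra4 was called lower, in a fit that called 5716 genes, against 2161 with all 6 libraries.

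Both beta genes fell. Gabrb1 was at 12.13, 9.52 and 9.93 FPKM in H-Ras(G12V) libraries, against 16.27, 17.86 and 18.2 FPKM in mCherry libraries. Both groups were tight and apart, with a log2 fold change of -0.68 (SE 0.13, adjusted p = 0.0175). Gabrb2 was at 10.22, 6.06 and 11.5 FPKM in H-Ras(G12V) libraries, against 16.8, 19.18 and 25.38 FPKM in mCherry libraries. All H-Ras(G12V) libraries were lower, and the log2 fold change was -1.09 (SE 0.25, adjusted p = 0.0299).

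Gabrg1 was the exception in direction. It was at 7.94, 5.14 and 10.7 FPKM in H-Ras(G12V) libraries, against 2.62, 2.37 and 3.28 FPKM in mCherry libraries. Every H-Ras(G12V) library was higher, and the ratio of the means was 2.88. The log2 fold change was 1.21 (SE 0.24, adjusted p = 0.0209). Set against its neighbour on chromosome 5, the ratio of Gabrg1 to Gabra2 FPKM within a library was 0.606, 0.635 and 0.699 in H-Ras(G12V) libraries and 0.109, 0.0849 and 0.179 in mCherry libraries. That these do not overlap follows from the separate groups of each gene. The ratio was 0.104, 0.0664 and 0.102 in etoposide libraries, below the 0.269, 0.198 and 0.231 of DMSO libraries.

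The calls of the members other than Gabra5 rested on which libraries were used. With mCherry libraries 1 and 2 averaged, only 1 of the 7 members was called, and in a single fit of all 12 libraries 0 were (Gabra5 at an adjusted p of 0.0678). In the comparison of the 6 libraries all 7 members had an unadjusted p under 0.05, as did 34.4% of all genes tested. Without 1 library at a time the number called ran from 1, without mCherry library 1 or without mCherry library 2, to 7, without mCherry library 3. It was 2 without H-Ras(G12V) library 1 and 2 without H-Ras(G12V) library 3. The count over all genes, 2161 with the 6 libraries, changed too. It was 631, 627 and 5716 without mCherry libraries 1, 2 and 3. It was 496 without H-Ras(G12V) library 1 and 690 without H-Ras(G12V) library 3. With mCherry libraries 1 and 2 averaged it was 639, and in the single fit 307. The fit without mCherry library 3 drops the control library most like the H-Ras(G12V) libraries across genes. It keeps mCherry libraries 1 and 2, with a rank correlation of 0.997, which lowers the spread of that group by construction.

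The summed level of the neuron markers was lower in the same libraries. Of 16 neuron markers, 5 fell and 1 rose, and their summed level was 1628 to 1991 FPKM in H-Ras(G12V) against 2449 to 3238 in mCherry libraries, with none at 0. The neuron count was 0 without any 1 of the 3 H-Ras(G12V) libraries or mCherry libraries 1 and 2, 0 with mCherry libraries 1 and 2 averaged, and 15 without mCherry library 3. Rbfox3, which encodes the neuronal nuclear protein NeuN, was at 9.88, 14.03 and 11 FPKM in H-Ras(G12V) libraries and at 19.98, 23.02 and 46.99 in mCherry libraries, a log2 fold change of -1.21 (SE 0.31, adjusted p = 0.0421). Of 12 excitatory neuron markers 6 fell and 0 rose, and of 14 inhibitory neuron markers 6 fell and 2 rose. Without 1 library, 1 to 9 of the excitatory list were called, lowest without H-Ras(G12V) library 1, and 4 to 11 of the inhibitory list, with the highest of both without mCherry library 3. In bulk RNA, fewer cells of a type and less RNA per cell cannot be told apart. Per 1000 FPKM of the summed neuron markers, Gabra5 stood at 19.4, 15.6 and 23.5 in H-Ras(G12V) libraries and at 33.9, 31.1 and 50.6 in mCherry libraries. Gabrg1 stood at 4.15, 2.58 and 6.57 in H-Ras(G12V) libraries and at 0.840, 0.732 and 1.34 in mCherry libraries on the same scale. The groups of these 2 genes did not overlap on that scale, while those of the other 5 members did. The share of all genes that did not overlap on that scale was not computed, and on plain FPKM it was 40.3%. On the same scale Gabra5 stood at 18.3, 26.3 and 30.6 in etoposide libraries and at 40.7, 39.1 and 27.9 in DMSO libraries, which overlapped. Whether any member changed apart from the neuron markers was not tested.

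Markers of other cells were also called in these libraries. Of 11 fibroblast, meningeal and mural markers 9 fell, with a median log2 fold change of -3.16 and a summed level of 60.8 to 86.2 FPKM in H-Ras(G12V) against 214 to 324 in mCherry libraries, and 8 to 10 of them were called in every alternative setting. Of 11 oligodendrocyte lineage markers 8 rose and 0 fell, with a summed level of 954 to 1171 FPKM in H-Ras(G12V) against 235 to 790 in mCherry libraries. That count was 0 without H-Ras(G12V) library 1, H-Ras(G12V) library 2 or mCherry library 1 and with mCherry libraries 1 and 2 averaged, 1 without mCherry library 2, 2 without H-Ras(G12V) library 3 and 11 without mCherry library 3. Of 10 progenitor markers 4 rose, with a sum of 5340 to 6290 FPKM in H-Ras(G12V) against 2887 to 3625 in mCherry libraries, and of 12 astrocyte markers 3 rose. Without mCherry library 3 these counts were 7 and 10. No gene of these 4 lists was at 0 in all libraries, and their part in the levels of the subunit genes was not tested.

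**Figure D2:**
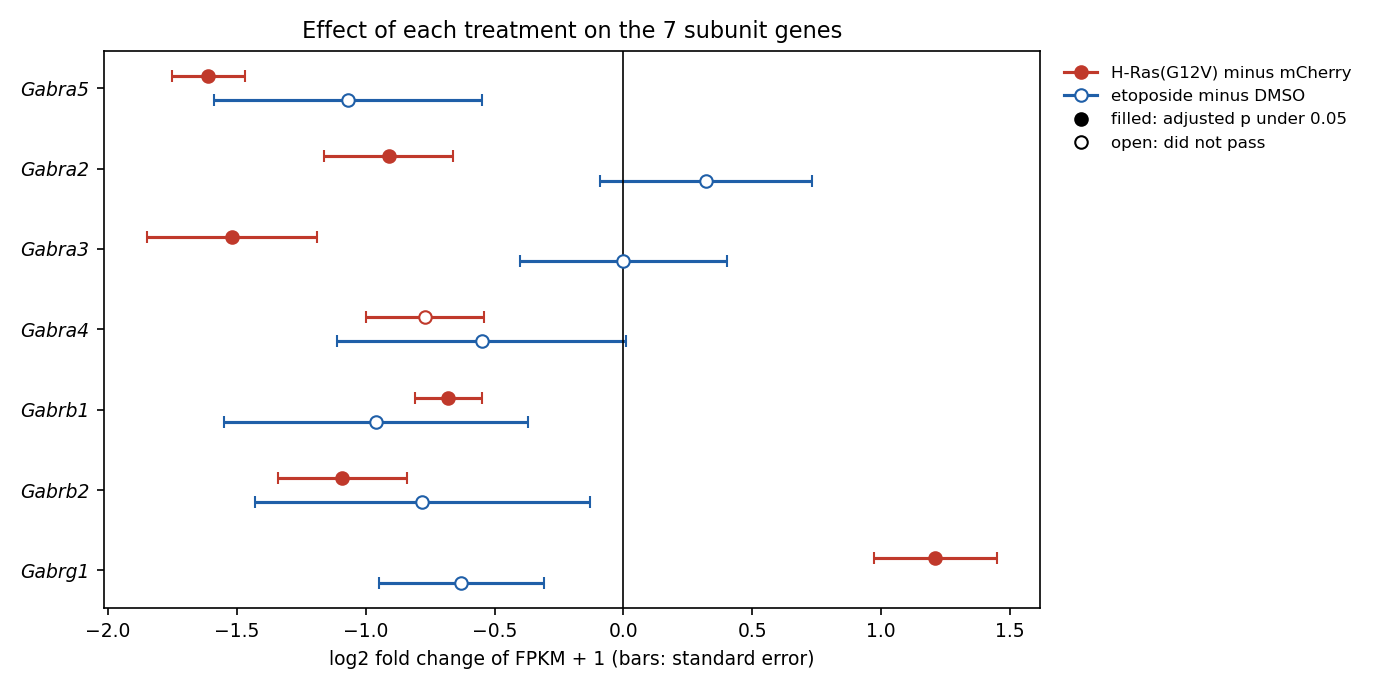
Log2 fold change on the log2(FPKM + 1) scale of each subunit gene, with bars of 1 SE, for H-Ras(G12V) against mCherry and for etoposide against DMSO; filled points passed an adjusted limma p of 0.05. In H-Ras(G12V), 5 filled points lie below 0 and Gabrg1 lies above it at 1.21, while no etoposide point is filled and the bars there are wider.

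With etoposide no member passed the test. 0 of the 7 members were called and 0 had an unadjusted p under 0.05, while across the 12371 genes tested 0.453% were called, 56 genes, with 1724 at an unadjusted p under 0.05. The groups overlapped for all 7 members; across all genes tested, 15.8% did not overlap, 7.64% higher and 8.17% lower. The median log2 fold change of the members was -0.63, and over all genes tested it was 0.09. The summed FPKM of the 7 members was 43.0, 106.9 and 194.3 in etoposide libraries 1, 2 and 3, against 197.4, 191.6 and 118.8 in DMSO libraries 1, 2 and 3. Etoposide libraries 1 and 2 lay below every DMSO library and library 3 within the DMSO range.

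Gabra5 made up 46.8% to 54.9% of the summed FPKM of the 7 members in etoposide and 59.3% to 70.1% in DMSO libraries, so the sum largely reflects this gene. Gabra5 was at 20.13, 54.52 and 106.6 FPKM in etoposide libraries 1, 2 and 3, against 120.28, 113.67 and 83.22 FPKM in DMSO libraries 1, 2 and 3. Etoposide library 3 lay above DMSO library 3, and the other 2 etoposide libraries below all DMSO libraries. The log2 fold change was -1.07 (SE 0.52, adjusted p = 0.369).

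Among the other alpha genes, Gabra4 was at 4.27, 13.62 and 26 FPKM in etoposide libraries, against 22.8, 22.76 and 10.65 in DMSO libraries. Gabra2 was at 8.01, 13.71 and 18.07 FPKM in etoposide libraries, against 12.01, 14.22 and 5.63 in DMSO libraries. Both genes had their highest value in etoposide library 3, and the groups overlapped. Gabra3 was at 6.58, 17.02 and 11.67 FPKM in etoposide libraries, against 15.82, 11.64 and 7.14 in DMSO libraries. Its log2 fold change was 0.00 (SE 0.40), that of Gabra2 was 0.32 (SE 0.41) and that of Gabra4 -0.55 (SE 0.56), and none passed.

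In the beta genes the etoposide libraries lay on both sides of DMSO library 3. Gabrb1 was at 1.61, 3.21 and 13.3 FPKM in etoposide libraries, against 10.94, 13.67 and 5.64 in DMSO libraries. Gabrb2 was at 1.56, 3.93 and 16.8 FPKM in etoposide libraries, against 12.28, 12.87 and 5.18 in DMSO libraries. Etoposide libraries 1 and 2 lay below all DMSO libraries for both genes, while library 3 was just below the highest DMSO value for Gabrb1 and above it for Gabrb2. Gabrg1 was at 0.83, 0.91 and 1.84 FPKM in etoposide libraries, against 3.23, 2.82 and 1.3 in DMSO libraries. Library 3 of each group lay inside the other group's range, and the log2 fold change was -0.63 (SE 0.32, adjusted p = 0.379).

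Without etoposide library 3, which correlated best with the DMSO libraries, 3 members were called lower, in a comparison in which 31.8% of all genes were called and 13.4% were called lower. Gabra5 then had a log2 fold change of -1.62 (adjusted p = 0.0115, limma), Gabrb1 of -1.67 (adjusted p = 0.00952) and Gabrb2 of -1.56 (adjusted p = 0.0192). Gabra4 at -1.09 (adjusted p = 0.092) and Gabrg1 at -0.84 (adjusted p = 0.0569) did not pass. This fit holds 2 etoposide libraries, and leaving out the etoposide library nearest to the controls across genes tends to widen differences. Not every member moved that way. The log2 fold changes of Gabra2 and Gabra3 were 0.07 and -0.04 in this fit, against 0.32 and 0.00 with all 6 libraries. Leaving out any 1 of the other 5 libraries gave 0 called members. The summed neuron markers were 1102 to 3485 FPKM in etoposide against 2906 to 2979 in DMSO libraries, and 0 of 16 were called, with 2 at an unadjusted p under 0.05. Without etoposide library 3, 5 neuron markers were called. Of the oligodendrocyte lineage markers 4 of 9 fell (7 without etoposide library 3, 2 without etoposide library 2 and 2 without DMSO library 3), with sums of 78.0 to 220 FPKM in etoposide against 566 to 925 in DMSO libraries, and their part in these values was not tested.

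**Figure D3:**
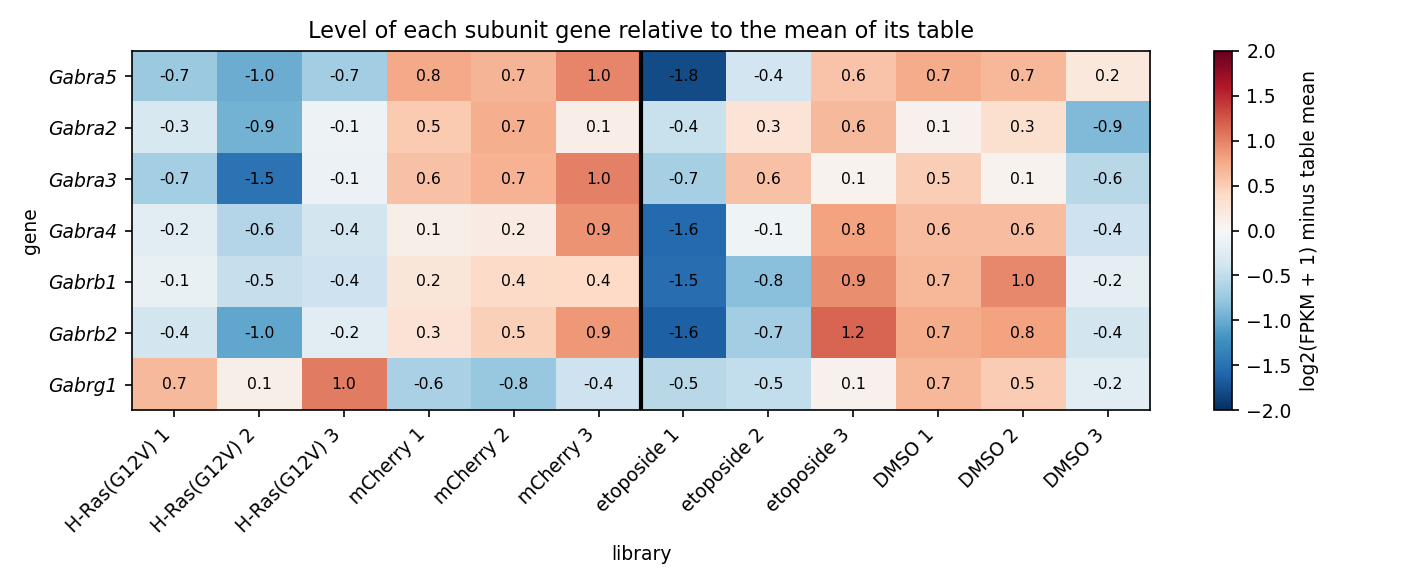
Log2(FPKM + 1) of each subunit gene in each library, centred on the mean of the 6 libraries of its table, with a colour scale in log2 units. Gabrg1 is above its table mean in the 3 H-Ras(G12V) libraries while the other 6 genes are mostly below theirs, and etoposide library 3 lies apart from etoposide libraries 1 and 2 for Gabrb1 and Gabrb2, which are at 13.3 and 16.8 FPKM there.

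With groups taken from the titles, the effect of H-Ras(G12V) minus that of etoposide differed for 1 of the 7 members, Gabrg1. This contrast was fitted over the 12 libraries, and 2.78% of the 12179 genes tested in both tables were called, 2.5% with a positive difference. For Gabrg1 the difference was 1.84 on the log2 scale (SE 0.42, adjusted p = 0.0358, limma); it was still called in 8 of 19 alternative settings, with adjusted p between 0.00575 and 0.398. For the other 6 members the difference lay between -1.52 for Gabra3 (adjusted p = 0.190) and 0.28 for Gabrb1 (adjusted p = 0.864), and a difference was not shown. Gabra5 had a difference of -0.54 (adjusted p = 0.669). This result rests on the titles. With the etoposide and DMSO groups exchanged, as the treatment tags name them, 0 members were called, against 1.23% of all genes, and the difference was 0.57 for Gabrg1 (adjusted p = 0.398) and -2.68 for Gabra5 (adjusted p = 0.0545).

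Gabra5 took a smaller share of the alpha genes in the H-Ras(G12V) and the etoposide libraries than in their controls. Gabra5 made up 52.1%, 57.7% and 50.5% of the summed FPKM of the 4 alpha members in H-Ras(G12V) libraries, against 64.5%, 61.2% and 63.1% in mCherry libraries. It made up 51.6%, 55.1% and 65.7% in etoposide libraries, against 70.4%, 70.0% and 78.0% in DMSO libraries. In neither model did the groups overlap, and this held with etoposide library 3 included. Gabra2 made up 20.5%, 13.9% and 11.1% in etoposide libraries, against 7.03%, 8.76% and 5.28% in DMSO libraries, again with no overlap. In H-Ras(G12V) libraries its share was 18.4%, 15.1% and 20.2%, against 14.7%, 17.0% and 9.31% in mCherry libraries, which overlapped. The shares are a description and were not tested.

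**Figure D4:**
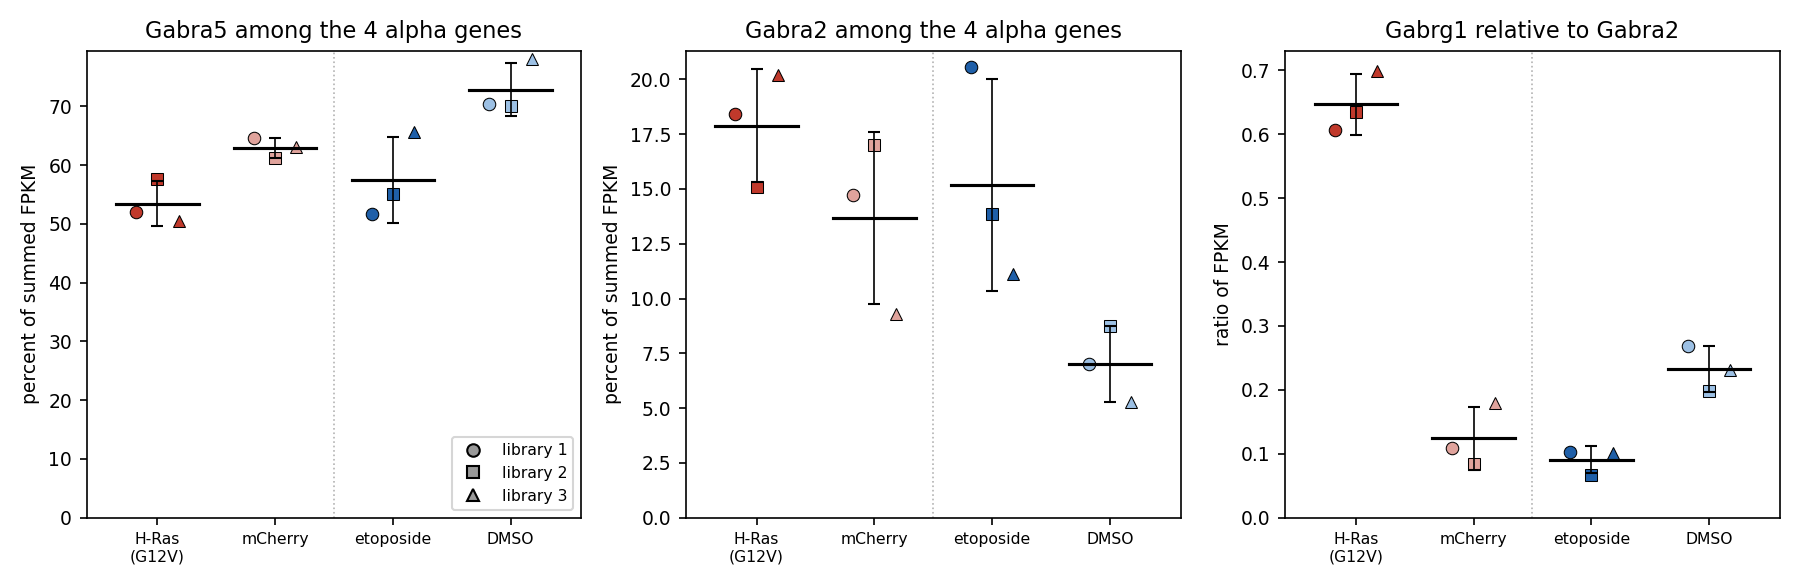
Shares of Gabra5 and of Gabra2 in the summed FPKM of Gabra2, Gabra3, Gabra4 and Gabra5, in percent, and the ratio of Gabrg1 to Gabra2 FPKM. Each measure has its own panel and is shown for each library, with H-Ras(G12V) left of mCherry and etoposide left of DMSO. The Gabra5 share is 50.5% to 57.7% in H-Ras(G12V) against 61.2% to 64.5% in mCherry libraries, and 51.6% to 65.7% in etoposide against 70.0% to 78.0% in DMSO libraries.

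Among themselves the members varied most alike in a group of 3. The measure was the root mean square difference, over the 12 libraries, of log2(FPKM + 1) centred on the mean of each table, with smaller values meaning more alike. It was 0.26 between Gabrb1 and Gabrb2, 0.28 between Gabra4 and Gabrb2 and 0.30 between Gabra4 and Gabrb1. Gabrg1 differed from the other 6 members by 0.81 to 1.08, all above its own median of 0.68 over all 12179 genes. Across the 7 members that median was between 0.64 and 0.94.

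Of all genes, those nearest to Gabra5 were Prkce at 0.17, which encodes protein kinase C epsilon, and Gria1 at 0.20, which encodes an AMPA receptor subunit. Nearest to Gabra2 were Fgd4 at 0.16 and Osbpl8 at 0.19, and nearest to Gabra3 were Ppp3cb at 0.33, a catalytic subunit of calcineurin, and Dlx1 at 0.33, a homeobox factor of inhibitory interneurons. Gabra4 was nearest to the potassium channel gene Kcnq5 at 0.15 and to Rab3c at 0.15, a GTPase of secretory vesicles. Gabrb1 was nearest to Paqr9 at 0.12 and the calcium channel gene Cacna1e at 0.13. Gabrb2 was nearest to Pgm2l1 at 0.14 and to the cannabinoid receptor gene Cnr1 at 0.15. Gabrg1 had other neighbours, Nova1 at 0.19, a neuronal splicing regulator, and the phosphodiesterase gene Pde7b at 0.19. Nova1 was at 27.05, 21.57 and 31.45 FPKM in H-Ras(G12V) libraries and at 10.99, 10.78 and 16.31 in mCherry libraries; a like pattern is what chose this gene.

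Other parts of the GABA pathway are given by their counts, which can be read against the 6.67% lower and 10.3% higher among all genes tested for H-Ras(G12V). Of 5 other tested GABA-A subunit genes 2 fell and 0 rose, with a median log2 fold change of -0.31. Of 7 genes of the GABA-B receptor, the metabotropic receptor for GABA, 3 fell and 0 rose, with a median of -0.54. Without 1 library, 1 or 2 of the other subunit genes and 1 to 3 of the GABA-B genes were called, each lowest without H-Ras(G12V) library 1. The 3 GABA-B genes that fell were Kctd12 and Kctd16, auxiliary subunits of the receptor, and Ajap1, which binds its extracellular part. Kctd12 was at 18.88, 14.33 and 15.5 FPKM in H-Ras(G12V) libraries, against 64.92, 66.0 and 34.62 in mCherry libraries, and its log2 fold change of -1.66 was close in size to that of Gabra5 (adjusted p = 0.0103, limma).

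Of 33 genes for scaffolding, assembly and trafficking of the receptor, 6 fell and 1 rose, with a median log2 fold change of -0.01. These 7 calls became 15 without mCherry library 3 and 2 or 3 without any other 1 library. Slitrk3, an adhesion molecule of inhibitory synapses, was at 11.05, 9.79 and 11.75 FPKM in H-Ras(G12V) libraries, against 28.87, 31.14 and 25.32 in mCherry libraries, a log2 fold change of -1.31 (adjusted p = 0.00256). Kif5a, a motor protein that carries the receptor along microtubules, fell by 1.19 on the log2 scale and Mdga1, which limits inhibitory synapses, fell by 1.10, while Maged1 rose by 0.72. Gphn, which encodes gephyrin, the scaffold under inhibitory synapses, averaged 29.9 ± 2.17 FPKM in H-Ras(G12V) and 30.6 ± 3.02 in mCherry libraries (n = 3 each). Its groups overlapped, with a log2 fold change of -0.03 (SE 0.12, adjusted p = 0.879).

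GABA synthesis and transport genes were called in 1 of 14 cases in H-Ras(G12V), the glutamine transporter gene Slc38a3, which rose by 0.67 on the log2 scale (adjusted p = 0.0433), and the list's median was 0.04. This call was lost under both other scalings, with mCherry libraries 1 and 2 averaged and without any 1 library but mCherry library 3, and 4 genes of the list were called without that library. The GABA-making enzymes Gad1 and Gad2 and the vesicular transporter Slc32a1 were not called (adjusted p = 0.260, 0.885 and 0.747). Without mCherry library 3, Gad2 was called higher, with a log2 fold change of 0.67 (adjusted p = 0.00653). Gad1 was at 57.97, 52.46 and 61.29 FPKM in H-Ras(G12V) libraries, against 64.92, 64.44 and 170.26 in mCherry libraries, where library 3 stood far above the other 2. Of 15 chloride transporter and kinase genes, 1 rose and 1 fell, with a list median of 0.03. The gene that rose was Slc12a4 (KCC1), by 0.83 on the log2 scale. The count of called genes in this list, 2, was 11 without mCherry library 3, 4 after scaling to a common FPKM sum and 0 with mCherry libraries 1 and 2 averaged. It was 1 without H-Ras(G12V) library 2, and 0 without any 1 of the other H-Ras(G12V) libraries or mCherry libraries 1 and 2. Slc12a5, the neuronal chloride exporter KCC2, averaged 16.0 ± 2.79 FPKM in H-Ras(G12V) and 27.7 ± 9.77 in mCherry libraries with no overlap, and was not called (adjusted p = 0.0890). Slc12a2, the importer NKCC1, averaged 11.7 ± 2.78 FPKM in H-Ras(G12V) and 9.44 ± 0.361 in mCherry libraries, with overlap (adjusted p = 0.365). Of 5 endozepine and neurosteroid genes 1 fell, Akr1c14, which encodes a 3-alpha-hydroxysteroid dehydrogenase, and 0 of 2 glycine receptor genes were called, both with an unadjusted p under 0.05, as 34.4% of all genes had.

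With etoposide none of these 7 lists had a called gene, and their median log2 fold changes ran from -0.69 for the GABA-B receptor to 0.37 for chloride transport. Of all genes tested, 13.9% had an unadjusted p under 0.05. In these lists that held for 5 of 15 genes of GABA synthesis and transport, 6 of 33 of scaffolding and trafficking, 1 of 15 of chloride transport and 1 of 5 of endozepine and neurosteroid supply, and 0 of the 5, 7 and 2 genes of the other GABA-A subunits, the GABA-B receptor and the glycine receptor. Gphn was at 10.82, 19.59 and 38.54 FPKM in etoposide libraries, against 38.39, 39.93 and 20.86 in DMSO libraries, the same split of library 3 from libraries 1 and 2 as in the beta subunit genes. Slc12a5 was at 11.17, 32.04 and 61.41 FPKM in etoposide libraries, against 46.34, 55.46 and 49.73 in DMSO libraries, and overlapped likewise. In the single fit of the 12 libraries 1 gene of GABA synthesis and transport was called, among 175 of all genes. The absence of called genes also did not hold without etoposide library 3, where 31.8% of all genes were called. In that fit 15 genes of scaffolding and trafficking, 7 of GABA synthesis and transport, 6 of the GABA-B receptor and 6 of chloride transport were called. The other GABA-A subunits had 1, endozepine and neurosteroid supply 2 and the glycine receptor 0.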

How the data were processed

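The authors deposited 2 tables of FPKM, 1 per model, with the gene symbol and 6 library columns each, per the file headers. They list 18223 and 17800 genes, 17416 in both. Per the submitters' processing notes the tools were HISAT, Bowtie2 and RSEM and the build mm9, with no versions or roles. The extract protocol states mRNA enrichment with oligo-dT beads. Depth is not in the tables. A rough estimate from the steps of low values was too weak to rely on, so no counts were rebuilt.

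Log2(FPKM + 1) was fitted within each table in limma 3.58.1 (R 4.3.3; lmFit, eBayes with trend) over genes averaging 1 FPKM or more, with Benjamini-Hochberg adjustment over all tested genes, a two-sided threshold of 0.05, and no block. Fold changes on this scale understate those of low genes. A contrast of the 2 effects used all 12 libraries, although the tables were assumed to be normalised separately. Alternatives were pseudocounts of 0.1 and 5, other filters and scalings, a replicate block, a single fit, averaged mCherry libraries 1 and 2, each library left out, and etoposide and DMSO exchanged. The script was tested on simulated data. Sequences are from RefSeq and GENCODE M21, neither of the build mm9 of the tables.

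The members and gene lists were chosen with earlier results of these data known. Named genes were the members, fixed pathway names, up to 3 called genes per list and direction, and the 2 nearest genes per member. Some genes these rules took are not reported here and stay in the counts.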

Additional observations from a re-analysis of the deposited data

Results flagged for a closer look

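The effect of H-Ras(G12V) against mCherry differed from that of etoposide against DMSO for the genes given here (adjusted limma p under 0.05 for the difference of the 2 log2 fold changes), with the etoposide and DMSO groups taken from the titles. Among the subunit genes this was Gabrg1, with a difference of 1.84 (adjusted p = 0.0358). Nova1, chosen for its likeness to Gabrg1 over these libraries and so no separate evidence, had 1.66 (adjusted p = 0.0158). In the trafficking list Kif5a had -2.25 (adjusted p = 0.0294) and Maged1 had 1.75 (adjusted p = 0.0340). Among markers of oligodendrocyte lineage, Pdgfra had 4.91 (adjusted p = 0.000365), Olig2 had 4.05 (adjusted p = 0.000449) and Mbp had 3.04 (adjusted p = 0.0205). The astrocyte marker Aldh1l1 had 3.10 (adjusted p = 0.00291), and the progenitor marker Hes5 had 3.22 (adjusted p = 0.00277). The interneuron marker Calb2 had -2.34 (adjusted p = 0.0151). Calb2 does not stand for its list: of 14 inhibitory neuron markers tested, 6 fell and 2 rose with H-Ras(G12V), and 0 of 13 were called with etoposide. The part of the glial and progenitor markers in the difference of Gabrg1 was not tested.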

How the results depend on the processing

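Of the results for members, Gabra5 in H-Ras(G12V) against mCherry was the steadiest: its log2 fold change stayed between -1.75 and -1.51 in 15 alternatives and missed the threshold in 1, the single fit of 12 libraries (adjusted p = 0.0678). The number of members called in that comparison, 6, was 0 in the single fit, 1 with mCherry libraries 1 and 2 averaged and 1 to 7 without 1 library. All genes called, 2161, became 307, 639 and 496 to 5716 in these settings. Higher calls were 60.7% of all calls, 39.1% after scaling to a common FPKM sum and 50.6% after median-of-ratios scaling; Gabrg1 was called higher and 5 members lower under each of these, with Gabra4 also called lower under the common sum. For etoposide, members called ran from 0 to 3 without 1 library, and all genes called, 56, became 22 at a mean of at least 5 FPKM, 175 in the single fit and 4 to 3938 without 1 library.

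For the difference between the models, members called fell to 0 at a mean of at least 5 FPKM, where Gabrg1 was not tested, and to 0 with a common sum, and ran from 0 to 1 without 1 library. All genes called, 339, became 603 with no filter, 161 at a mean of at least 5 FPKM and 183 to 2603 without 1 library. With the etoposide and DMSO groups exchanged, an alternative chosen after seeing the data, 0 members and 150 genes were called, and Gabrb1 turned to -1.65. The cause of these changes was not tested.

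Same-numbered libraries had correlations of their deviations of -0.039 to 0.119 in the first model and -0.265 to -0.151 in the second, so the numbers were not taken to pair libraries. With the replicate block, 5 members were called for H-Ras(G12V), without Gabra2 (adjusted p = 0.0709), 12 genes in all were called for etoposide, and 0 members were called for the difference, where Gabrg1 had an adjusted p of 0.0890.

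The signs that turned did so for values that were not called. For H-Ras(G12V), Gad2 was -0.02 with the common sum and -0.17 with the averaged libraries. Without 1 library, Gad2 ran from -0.18 to 0.67, being below 0 without mCherry library 1 or 2 and called at 0.67 (adjusted p = 0.00653) without mCherry library 3, Gphn ran from -0.09 to 0.04, and Slc32a1 from -0.45 to 0.26. For etoposide without 1 library, Gabra2 ran from -0.05 to 0.61, Gabra4 from -1.09 to 0.08, Gad2 from -0.83 to 0.44 and Slc32a1 from -0.50 to 0.35. For the difference between the models without 1 library, Gabra4 ran from -0.86 to 0.32, Gabra5 from -1.16 to 0.01, Gabrb1 from -0.24 to 0.98 and Gabrb2 from -0.93 to 0.47. The depth of the libraries is unknown, so counting error could not be set beside low values such as those of Gabrg1.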
